A study of Mus musculus with 8 samples.

Results

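The loops described here were chosen by their presence in deposited lists: both p42 lists hold them, with identical first and second 5 kb bins, and neither p30 list does. There were 11842 such loops among the 214313 loops of the 4 lists together (5.53%), and they made up 19.8% of the 59847 loops that both p42 lists share. A loop is a pair of genomic bins joined by more ligation products (contacts) than the loop caller expected for their distance and coverage. Membership was therefore selected on the measured contacts themselves, and contacts, contacts over expected and q-values of these loops are given as a description.

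CEBPA is a bZIP transcription factor that drives the granulocyte and monocyte programme of blood progenitors. Its full-length form p42 carries N-terminal transactivation domains that the shorter p30, made from a downstream start codon and favoured by leukaemia mutations, lacks. H3K27ac marks active promoters and enhancers, and H3K27ac HiChIP enriches for contacts between DNA fragments that carry this mark. A loop from a promoter bin to a distant marked bin is commonly used to assign a candidate enhancer to a gene.

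The cells were HPC-7, a mouse haematopoietic progenitor line grown with stem cell factor, with either p42 or p30. According to the study's methods the isoforms were introduced into HPC-7 cells, whose own CEBPA is very low, by retroviral transduction, and which of the described constructs was used for HiChIP is not stated. Cells of either line were untreated (UT) or received lipopolysaccharide (LPS), the bacterial ligand of TLR4, at 100 ng/mL for 2 h, which makes 4 groups of 2 libraries. One list per group was deposited, with both replicates pooled, so the spread between replicates is unknown, no test between groups was possible, and every comparison is between lists. The intervals given are 95% Wilson intervals and cover counting error only. The lists held from 78591 loops (p42 LPS) to 158233 (p42 UT), built on 14503330 (p30 LPS) to 18999991 (p42 UT) modelled contacts. All 10 progenitor genes examined, such as Kit, Gata2 and Runx1, had loops at their start-site bins in each list, and of 9 genes of other cell types 2 had loops in the UT list of either isoform and 1 in the LPS list.

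The promoter of Cebpe, from 250 bases before to 50 bases after its start (chr14:54949582-54949881, minus strand, GRCm39), is shown because Cebpe had most of the p42-only loops (member loops) at its start-site bin. It holds none of the 5 letter patterns searched, which are given with their shares further on.
Cebpe promoter: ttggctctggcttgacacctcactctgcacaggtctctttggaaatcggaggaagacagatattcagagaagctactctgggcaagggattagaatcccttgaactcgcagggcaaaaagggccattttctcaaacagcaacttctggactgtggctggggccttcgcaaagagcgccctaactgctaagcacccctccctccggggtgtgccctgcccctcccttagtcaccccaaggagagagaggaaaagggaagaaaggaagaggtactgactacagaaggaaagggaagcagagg

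Windows of 41 bases around matches in distal peak bins at the other end of member loops show where such letters lie relative to named genes, with the match in capitals. The letters TGATGCAA join part of an AP-1 or ATF4 site to part of a C/EBP site. A match is a description of the letters and not of binding.
Cebpe, 85 kb loop (chr14:55032418-55032458, plus strand): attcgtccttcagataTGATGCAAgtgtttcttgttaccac
Ppp1r15b, 70 kb loop (chr1:132987316-132987356, minus strand): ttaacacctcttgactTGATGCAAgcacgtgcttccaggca
Jdp2, 80 kb loop (chr12:85566091-85566131, minus strand): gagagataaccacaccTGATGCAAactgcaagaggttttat
Clec4d, 380 kb loop (chr6:122857829-122857869, plus strand): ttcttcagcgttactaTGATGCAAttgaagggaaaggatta
Clec4d, 450 kb loop (chr6:122785528-122785568, minus strand): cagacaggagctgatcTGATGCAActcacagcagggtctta
Rbpj, 95 kb loop (chr5:53653594-53653634, plus strand): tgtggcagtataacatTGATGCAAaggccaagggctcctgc
Irf2bp2, 275 kb loop (chr8:127597866-127597906, plus strand): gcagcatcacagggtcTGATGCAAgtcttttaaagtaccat
Cd47, 20 kb loop (chr16:49659512-49659552, plus strand): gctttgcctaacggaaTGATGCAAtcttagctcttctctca
The C/EBP palindrome TTGCGCAA was found in bins joined to a single named gene, Sp3, a zinc finger transcription factor.
Sp3, first bin (chr2:72877513-72877553, plus strand): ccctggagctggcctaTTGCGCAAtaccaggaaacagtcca
Sp3, second bin (chr2:72987328-72987368, plus strand): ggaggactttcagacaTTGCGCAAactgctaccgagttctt

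**Figure D1:**
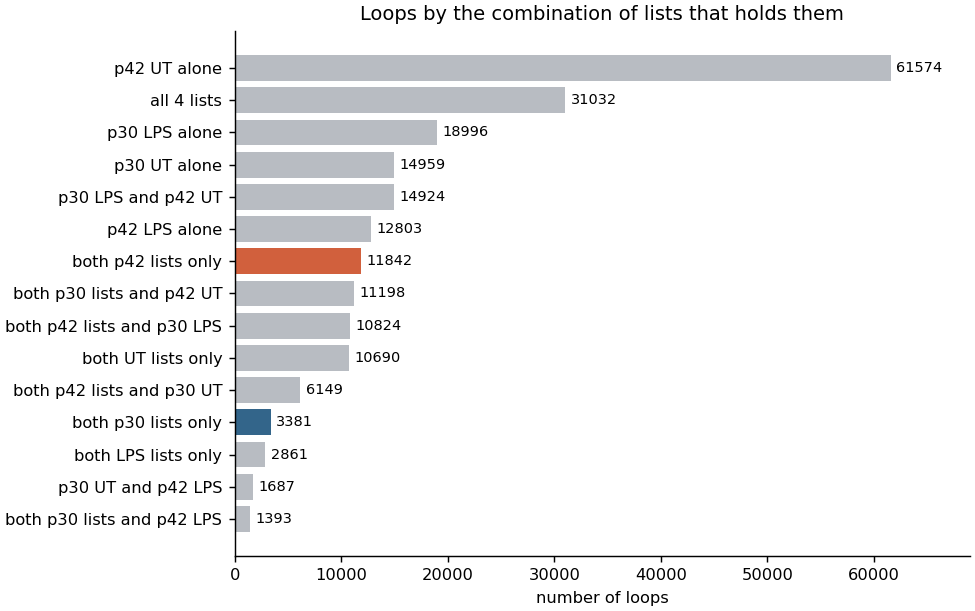
Number of loops (horizontal axis) held by each combination of the 4 lists, in bars that add up to 214313 loops. The orange bar is the 11842 loops in both p42 lists only and the blue bar the 3381 loops in both p30 lists only.

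The converse set, the loops in both p30 lists only, held 3381 loops. The lists differ in length, however. When each was restricted to its 78591 smallest q-values, 6770 loops were in both p42 lists only and 5723 in both p30 lists only. The surplus on the p42 side thus shrank when the lists were made equally long.

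The p42-only loops were short to mid range, with a median distance of 40 kb (quartiles 20 and 80 kb) against 45 kb for the loops in both p30 lists only and 35 kb for the 31032 loops in all 4 lists. At their bins 29.0% (28.2 to 29.8%) had the start of a protein-coding gene in at least 1 bin, against 30.2% (28.7 to 31.8%) of the loops in both p30 lists only and 38.3% (37.8 to 38.8%) of those in all 4 lists. With the bins beside the start site counted as promoter, the share of the p42-only loops was 55.6%. Both bins were promoters in 3.45% of them, and 71.0% joined bins without a promoter. Both bins carried an H3K27ac peak in 92.4% of them, in 92.8% of the loops in all 4 lists and in 85.4% (84.1 to 86.5%) of the loops in both p30 lists only. The share of the p42-only loops among the loops of both p42 lists was 13.04% (12.4 to 13.7%) at 10 kb, the shortest distance listed, and 21.9% (21.3 to 22.6%) at 25 to 50 kb.

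The median of these loops was 20 contacts in p42 UT (quartiles 14 and 32) and 16 under LPS (12 and 25), while loops in all 4 lists had medians of 39 and 27 in the same libraries. The loops in both p30 lists only had medians of 16 contacts in p30 UT and 15 in p30 LPS, and all loops listed in p42 UT had a median of 20 and those listed in p42 LPS of 19. The median contacts over expected was 4.14 in p42 UT and 4.17 under LPS, against 5.23 and 4.53 for the loops in all 4 lists and 4.24 and 4.33 for all listed loops. Among the loops of both p42 lists, 36.1% (35.3 to 36.8%) of the quartile group with fewest p42 UT contacts were absent from both p30 lists, and 6.53% (6.15 to 6.94%) of the quartile group with most. The share fell across all 4 quartile groups. Contacts moved with membership in this way, and their part in it was not tested.

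**Figure D2:**
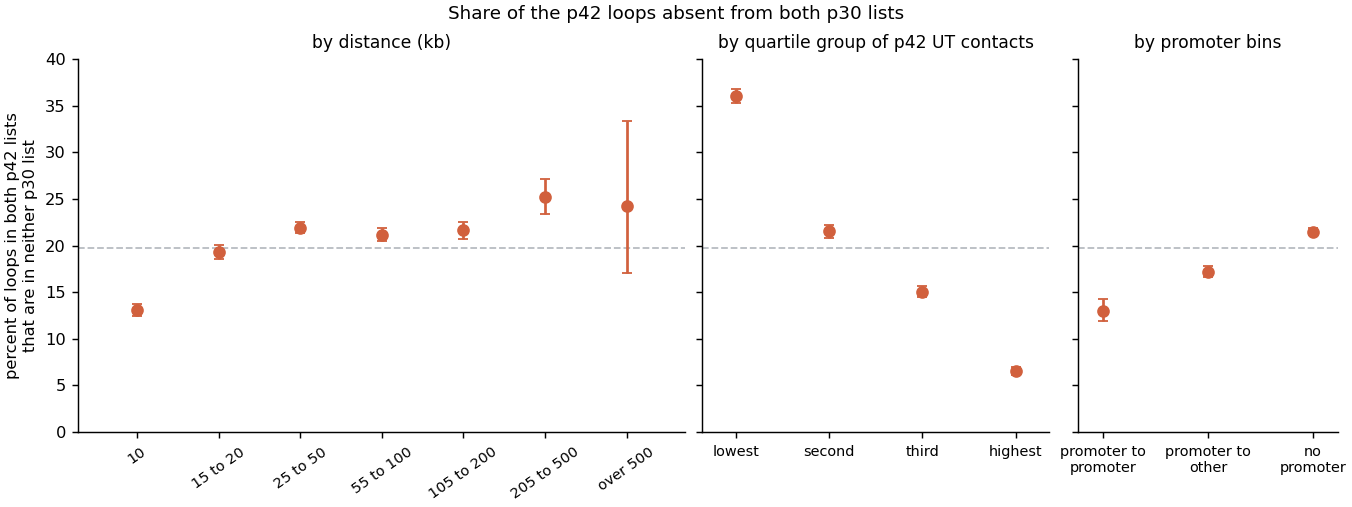
Percent of the loops in both p42 lists that are in neither p30 list (vertical axis), by distance in kb, by quartile group of the p42 UT contacts and by the number of promoter bins, with 95% Wilson intervals. The dashed line is the overall 19.8%, and the share falls from 36.1% to 6.53% from the lowest to the highest quartile group of contacts.

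Many of the loops lay near the q-value limit of 0.01. The larger of both p42 q-values was between 0.005 and 0.01 in 3009 members (25.4%), with medians of 17 and 14 contacts in p42 UT and p42 LPS, and under 1e-05 in 932 (7.87%), with medians of 27 and 22. Just outside the rule were 2059 loops of both p42 lists whose smallest p30 q-value lay between 0.005 and 0.01, with medians of 23 and 18 contacts.

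Most members had a p30 loop close by. For 9399 of them a p30 list held a loop with both bins identical or adjacent, and 2443 (20.6%, 19.9 to 21.4%) had none within 1 bin at each end. For the loops in both p30 lists only, 15.6% (14.4 to 16.8%) had no p42 loop within 1 bin. This order turns with the lists compared. The p42 UT list is the longest, and the part of list length in this order was not tested. Against the p42 LPS list alone 39.4% of the loops in both p30 lists only had no neighbour. Of the members 34.96% had none in p30 UT and 29.7% had none in p30 LPS. With 2 bins of slack 1351 members (11.4%) were still without a p30 neighbour. The bins themselves were mostly in use in p30 cells: both bins had other loops in a p30 list in 82.9% of the members, a single bin did in 14.2%, and 347 members (2.93%) joined bins with no p30 loop at all. Among the 2443 without a p30 neighbour, 286 (11.7%) joined such bins and 1484 (60.7%) joined bins that both had other p30 loops.

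The loops without a p30 neighbour had a promoter bin in 35.3% (33.5 to 37.2%) against 27.4% (26.5 to 28.3%) of the members with a p30 neighbour, and joined 2 promoters in 5.61% against 2.89%. Distances beyond 100 kb were found in 23.05% (21.4 to 24.8%) of them and in 16.8% (16.1 to 17.6%) of the others. Their contacts over expected had medians of 4.22 in p42 UT and 4.33 under LPS against 4.13 and 4.14.

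A loop missing from a list has no deposited contact number, but an upper bound could be computed. The expected count in each list is an exact function of distance and of the coverage bias of both bins. Where both bins of a member have other loops in a p30 list, its expected count there follows, and with it the highest contact number that would still have missed the list, called the p30 ceiling below. No listed loop lay at or below its ceiling in any of the 4 lists. This follows from how the ceiling was set, from the largest p-value of each list, and is no check of it. The refit of the expected count covered 108 of 178 distances in p30 UT and 110 of 187 in p30 LPS, and other distances have no ceiling. The ceiling rests on the assumption that the pair was tested in p30. Ratios to the ceiling are ratios of contacts over expected in p42 to the ceiling over its expected count in p30, and not of contact numbers, unless stated.

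In the UT pair of lists 8221 members had a ceiling, with a median of 19 contacts in p42 and of 12 contacts for the p30 ceiling. Contacts over expected in p42 UT were at or above the p30 ceiling in 89.0% of them, at least 1.5 times above it in 19.6%, and at least 2 times in 3.13%. The rule asks for a listed loop in p42 and none in p30, so ratios at or above 1 are largely fixed by the selection. In the LPS pair 8816 members had a ceiling, with medians of 16 contacts and of 11, and the shares were 93.1%, 8.85% and 0.817%. Of the 7361 members with a ceiling under both treatments, 262 (3.56%) were at least 1.5 times above it under both, and 14 were at least 2 times above. On contacts per modelled contact in place of contacts over expected, 604 members (8.21%) were at least 1.5 times above the ceiling under both treatments.

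**Figure D3:**
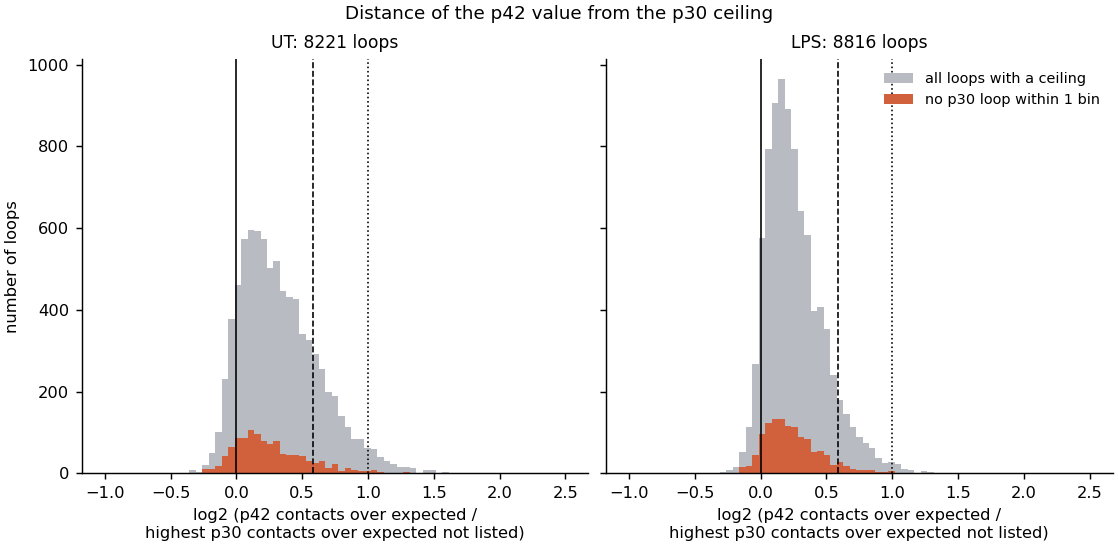
Number of loops (vertical axis) by the log2 ratio of contacts over expected in p42 to the highest value in p30 that would not have been listed, for UT and LPS. Orange bars are the loops with no p30 loop within 1 bin, and the lines stand at ratios of 1, 1.5 and 2, with most loops between ratios of 1 and 1.5.

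H3K27ac coverage of the bins, the number of ligation products that touch a bin, was compared as a multiple of the mean coverage of peak bins in the same list. The contacts come from the same libraries, so coverage is not independent of the rule and is given without a test. Of the 15734 peak bins of these loops 11601 had a coverage value in all 4 lists. Coverage was at least 1.5 times higher in p42 than in p30 under both treatments in 489 of them, 4.22% (3.86 to 4.60%), and at least 1.5 times lower in 20. Of all 31321 peak bins with 4 values, 2.1% were higher and 0.508% lower by this measure. For the loops without a p30 neighbour the share was 8.12% (7.05 to 9.33%) of 2218 bins, and for the loops in both p30 lists only it was 0.601% of 4327 bins, of which 1.57% were lower in p42. On coverage per modelled contact the shares were lower, 1.44% of the members' bins and 0.709% of all peak bins. The median log2 ratio over the bins of the members was 0.11 in UT and 0.05 in LPS. Per modelled contact it was 0.30 in UT and -0.28 in LPS, so the direction in LPS turns with the scale, and the medians of all peak bins on that scale were 0.19 and -0.35.

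**Figure D4:**
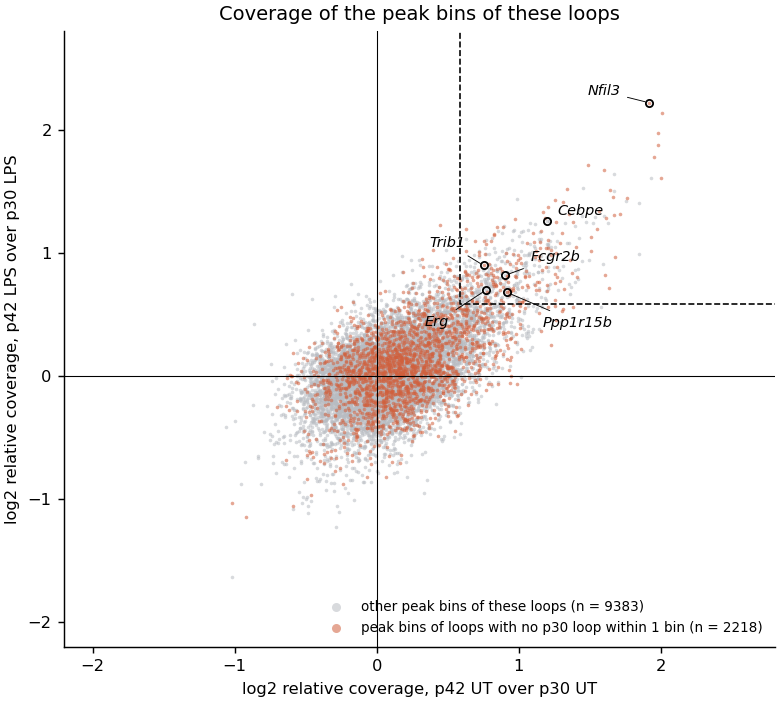
Each point is a peak bin of the members, with the log2 ratio of relative coverage of p42 to p30 in UT (horizontal axis) and in LPS (vertical axis). Orange points are bins of loops with no p30 loop within 1 bin, circles mark start-site bins of 6 named genes, and the dashed corner encloses the 489 bins at least 1.5 times higher under both treatments.

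Protein-coding genes with a member loop at the start-site bin numbered 2930, that is 27.9% of the 10514 genes with any promoter loop. The number was 1920 in lists of equal size and 4920 with the bins beside the start site included. Most of their start-site bins had few: 1811 promoter bins had 1, 540 had 2, 19 had 5, 17 had 6 and 1 had 9. Cebpe, the C/EBP family member required for terminal granulocyte maturation, came first with 9 member loops. Among the 17 start-site bins with 6 were those of Nfil3, Clec4d, Rbpj, Cd47, Ppp1r15b and Irf2bp2.

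The start-site bin of Cebpe (chr14:54945001-54950000, mm39) had 28 loops in the UT list and 15 in the LPS list of p42, against 5 and 3 in those of p30. Of the 15 loops that both p42 lists share, 9 were in neither p30 list. They reached 25 and 45 kb towards Acin1 on one side and 45 to 150 kb on the other, into Slc7a8, Rnf212b, Homez and the lncRNA Gm62887. Of the 9, the loop with the highest contacts over expected in p42 UT joined Cebpe to an intron of the lncRNA Gm62887 at 85 kb (chr14:55030001-55035000), with 24 contacts (9.29 times expected) in p42 UT and 11 (4.95 times) under LPS. Its p30 UT ceiling was 9 contacts, and the p42 UT value was 2.05 times the ceiling in contacts over expected. The ratios of the other loops in UT ran from 0.88 to 1.46, so that 1 loop, at 45 kb, lay below its ceiling on this scale. The 5 loops with a p30 LPS ceiling had ratios between 1.03 and 1.21 under LPS. Each of the 9 had a p30 loop within 1 bin. Coverage of the Cebpe bin was 4543 (UT) and 3022 (LPS) for p30 and 12582 (UT) and 6268 (LPS) for p42. Relative to the mean of peak bins this was 2.29 times higher in p42 under UT and 2.40 times under LPS.

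Nfil3 encodes a bZIP repressor needed for natural killer and other innate lymphoid cells. All of its 6 member loops were without a p30 neighbour, and its start-site bin had 13 loops in the UT list and 11 in the LPS list of p42, against 3 and 1 in those of p30. The p30 loops all reached bins 270 to 280 kb away, and both p42 lists held these loops as well. The loop at 270 kb had 16 (UT) and 11 (LPS) contacts in p30 and 22 (UT) and 41 (LPS) in p42. The member loops reached bins at 140 to 165 kb and at 320 and 325 kb, in Auh or between Syk and Auh. The longest (chr13:52810001-52815000 to chr13:53135001-53140000) had 24 contacts in p42 UT, 18.1 times expected, and 15 in p42 LPS, 11.6 times. That was the highest smaller value of contacts over expected among the members without a p30 neighbour at 20 kb or more with at least 10 contacts. The far bins of this loop and of the loop at 320 kb held no H3K27ac peak, and neither loop had a p30 ceiling. The loop at 155 kb, with 9 contacts under each treatment, lay below its ceiling in contacts over expected, with a ratio of 0.92 in UT and in LPS. The other ratios were 1.36 in UT, at 140 kb, and 1.31 to 1.59 in LPS, at 140 to 165 kb. Coverage of the Nfil3 bin was 908 (UT) and 783 (LPS) for p30 and 4138 (UT) and 3159 (LPS) for p42, so the p42 values lay above both p30 values. Relative coverage was 3.77 times higher in p42 under UT and 4.66 times under LPS, the widest gap among the named genes with coverage in all 4 lists.

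**Figure D5:**
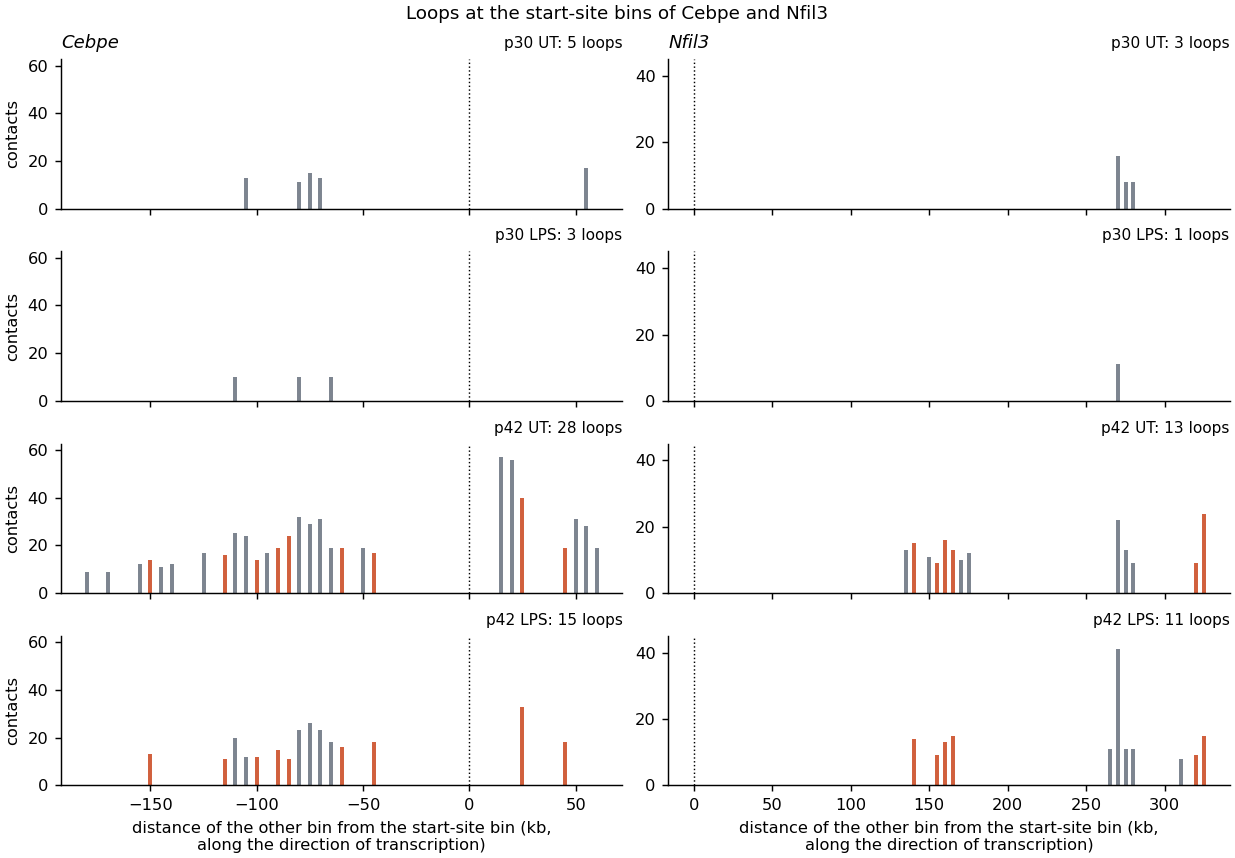
Loops of the start-site bins of Cebpe (left) and Nfil3 (right) in each list, drawn at the distance of the other bin in kb (horizontal axis) with the height giving the contacts. Orange lines are the member loops, 9 at Cebpe and 6 at Nfil3, and grey lines are loops that at least 1 p30 list or a single p42 list holds.

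The start-site bins of 4 named genes had no loop in either p30 list, although a p30 loop within 1 bin at each end was listed for some of their member loops. Cxcl2, a chemokine that attracts neutrophils, had 5 loops in each p42 list, and its 4 member loops reached 110 to 245 kb across the Cxcl gene cluster, all without such a p30 neighbour, the nearest to the start-site bin of Cxcl15 with 10 contacts in p42 UT and 9 under LPS. Ms4a3, a surface marker of granulocyte and monocyte progenitors, had 6 loops in p42 UT and 3 under LPS, and all 3 shared ones were members, to Ms4a2 and Oosp2 with a p30 neighbour and to Oosp1 without. The loop to Ms4a2 at 25 kb had 31 and 26 contacts. The start-site bin of Sstr4, a somatostatin receptor gene annotated inside an intron of Thbd, had 10 and 7 loops, of which 6 were members. Of these, 3 reached neighbouring bins beyond Cd93 at 170 to 180 kb, each with a p30 neighbour, with contacts over expected of up to 8.55 in p42 UT and 11.4 under LPS. Isg15, an interferon-induced ubiquitin-like protein, had a single loop, to Klhl17 at 30 kb, with 13 and 16 contacts and with a p30 neighbour. A bin without a listed loop in p30 has no coverage value there, so its H3K27ac level in p30 could not be given.

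Granulocyte genes had member loops at 14 of the 22 with any promoter loop, and 26.9% of their promoter loops in both p42 lists were members. Over all genes these shares were 27.9% of genes and 15.97% of promoter loops. The shares of single gene lists rest on few genes and loops and are given without intervals. Their distance from the shares over all genes was not tested. Itgam, the CD11b integrin chain of myeloid cells, had 5 at its start-site bin, which it shares with Gm49368. They joined it to Pycard at 75 kb, to bins at 40 and 45 kb before the gene, to its own gene body at 25 kb and to Itgax, the CD11c chain, at 70 kb with 12 contacts in p42 UT and 13 under LPS. In contacts over expected the loop to Itgax had ratios to the ceiling of 0.94 in UT and 1.09 in LPS. The loop to Pycard was below its ceiling in UT (0.98) and the loop into the gene body in LPS (0.94). Ncf1, a subunit of the phagocyte oxidase, had 3.

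Monocyte genes had member loops at 7 of 18 (38.9%, against 27.9% of all genes), and 15.7% of their promoter loops in both p42 lists were members, near the 15.97% over all genes. Ccr2, the receptor that brings monocytes out of the marrow, had 5. Its loop to a bin of Ccr3 at 70 kb had 38 contacts (11.9 times expected) in p42 UT and 14 (5.25 times) under LPS. In contacts over expected the ratio to the ceiling was 2.98 in UT and 1.23 in LPS. Csf1r, the receptor for macrophage colony-stimulating factor, had 2, both at 15 kb, and no loop in p30 UT. Clec4d, a C-type lectin of myeloid cells, was not in the list and had 6, up to 460 kb long. The loop to Clec4a3 at 295 kb had 14 contacts in p42 UT and 15 under LPS, and its bin in Clec4a3 held no H3K27ac peak.

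C/EBP genes and their partners had member loops at 6 of 9 (66.7%, against 27.9% of all genes), and 30.5% of their 59 promoter loops in both p42 lists were members (15.97% over all genes), 9 of these 18 at Cebpe. Cebpb, an inflammation-induced C/EBP factor, had 3 of 19, at 20, 45 and 145 kb, with ratios to the ceiling in contacts over expected of 1.24 to 1.36 in UT and 1.00 to 1.01 in LPS. Trib1, a pseudokinase that promotes the degradation of CEBPA, had 3 of 4. The longest, to an intron of Nsmce2 at 255 kb, had 13 contacts in p42 UT and 18 under LPS, 9.96 and 14.1 times expected. Relative coverage of the Trib1 bin was 1.68 times higher in p42 under UT and 1.86 times under LPS. Cebpd had 1.

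AP-1 genes had member loops at 6 of 14 (42.9%, against 27.9% of all genes), with 21.4% of 56 promoter loops against 15.97%. Of these 12 loops 5 were at Jdp2, and the median share per gene was 7.14%, against 0% over all genes. Jdp2, a bZIP repressor of AP-1 activity, had 5, and all of its promoter loops in both p42 lists were members. The loop at 25 kb into its own intron had 40 contacts in p42 UT and 16 under LPS, with ratios to the ceiling in contacts over expected of 2.29 and 1.01. Fos had 2 of 14. The loop from Fos to an intron of Tmed10 at 110 kb had 15 and 16 contacts, with ratios in contacts over expected of 1.45 and 1.85. Jun had 1, without a p30 neighbour, and Mafg had 2. Cxcl10 had none, with 2 loops in the 4 lists together.

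Genes of the ATF4 and stress response had member loops at 5 of 19 (26.3%), near the 27.9% of all genes, with 15.1% of their promoter loops against 15.97%. Ppp1r15b, a regulatory subunit of the phosphatase that reverses the translation block by phosphorylated eIF2α, accounted for 6 of their 11. All of them reached upstream into Pik3c2b or Mdm4, at 25 to 115 kb. The loop at 80 kb had 26 contacts in p42 UT and 24 under LPS, 7.08 times expected in each, and the p30 ceilings were 11 and 10 contacts. In contacts over expected the ratios to the ceiling were 1.93 and 1.86, the highest of the 6. Those of the other loops ran from 0.95, at 70 kb, to 1.61 in UT and from 1.06 to 1.61 in LPS. Relative coverage of the start-site bin was 1.89 times higher in p42 under UT and 1.60 times under LPS. Sesn2 had 2, and Xbp1 and Atf5 had 1 each.

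Of the inflammatory cytokine and chemokine genes 18 of 31 had a member loop (58.1%, against 27.9% of all genes), with 20.6% of 165 promoter loops against 15.97%. Tnfsf14, the LIGHT ligand of the TNF family, had 5, including loops to Gpr108 and Vav1 without a p30 neighbour. Ccl9 and Ccl4, macrophage chemokine genes of a shared cluster on chromosome 11, had 3 each, of which 1 joins their start-site bins at 85 kb with 18 contacts in p42 UT and 15 under LPS. Genes of TLR4 and NF-kB signalling had member loops at 19 of 37 (51.4% of genes), with 14.4% of 194 promoter loops, near the 15.97% over all genes, led by the inhibitor Nfkbia with 4 of 18. The rule asks for the loop under both treatments, so these counts do not compare UT with LPS.

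Stem and progenitor cell genes had member loops at 14 of 22 and erythroid and megakaryocyte genes at 10 of 18, that is 63.6% and 55.6% against 27.9% of all genes, with 21.6% and 19.8% of their promoter loops against 15.97%. Erg, a progenitor transcription factor, had 5, of which 4 reached introns of Erg itself, and relative coverage of its bin was 1.71 times higher in p42 under UT and 1.62 times under LPS. Nfe2, a megakaryocyte bZIP factor, had 4 of 20. Lymphoid genes had none at the 9 with a promoter loop, but these had only 1 loop in both p42 lists. MHC class II and antigen presentation genes had member loops at 29.4% of genes, with 8.20% of their promoter loops. These shares were 26.1% and 18.2% for interferon response genes and 29.2% and 14.1% for cell cycle genes. For ribosomal protein genes they were 33.3% and 15.8%. For mast cell and basophil genes both were 16.7%, from 1 of 6 genes and 1 of 6 loops. Loops per gene differed between lists of genes, and genes with more loops have more chances of a member loop. The median was 6 over all genes, 13.5 for stem and progenitor cell genes and 12 for C/EBP genes and partners. It was 11 for granulocyte genes, 10 for inflammatory cytokine and chemokine genes and 2 for interferon response genes.

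Among the 71 named genes 64 had start-site coverage in all 4 lists. Relative coverage was higher in p42 under both treatments at 37 and lower under both at 7, while 31.1% of all peak bins and 43.8% of the members' bins were higher under both. The named genes were mostly chosen for many member loops. At 7 of them it was at least 1.5 times higher under both (2.1% of all peak bins were): Nfil3, Cebpe, Fcgr2b, Trib1, Erg, Ppp1r15b and Ccl4. On coverage per modelled contact 12 were higher and 4 lower under both, and the 2 at least 1.5 times higher under both were Nfil3 (4.31 times in UT and 3.70 in LPS) and Cebpe (2.62 and 1.90). The LPS ratios of Trib1, Fcgr2b, Erg, Ppp1r15b and Ccl4 were 1.48, 1.40, 1.29, 1.27 and 1.19 on that scale.

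Member loops clustered along the genome. Linked by a shared or adjacent bin, they formed 3050 groups, of which 1533 were single loops and 322 held at least 10 loops and together 5780 members (48.8%). The largest group (chr17:71010001-71795000) held 87 loops around Lpin2, Myl12b, Tgif1 and Smchd1, of which 21 had no p30 neighbour. The next held 80 loops at Irf2bp2 (chr8:127220001-127705000), the gene of an IRF2-binding co-repressor, and 66 at the Fcgr genes, the receptors for immunoglobulin G (chr1:170690001-171330000). The Cebpb group (chr2:167485001-167740000) held 48, the Zfp36l2 group (chr17:84180001-84790000) 47 and the chemokine group at Ccl3, Ccl4 and Ccl9 (chr11:83365001-83670000) 43. These stretches were also rich in other loops: the Irf2bp2 stretch had 282 (UT) and 574 (LPS) for p30 and 767 (UT) and 494 (LPS) for p42. By chromosome the share of the loops in both p42 lists that were members ran from 15.9% on chromosome 11 to 31.2% on chromosome 13 and 32.6% on chromosome X.

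Away from the named genes, the strongest members without a p30 neighbour included a loop from the start-site bin of Babam2 to an intergenic bin between Fosl2 and Plb1 at 495 kb, with 18 contacts in p42 UT (15.3 times expected) and 13 under LPS (11.1 times), with ratios to the ceiling in contacts over expected of 2.49 and 1.82. A loop within introns of Gnaq at 185 kb had 21 and 17 contacts, with ratios in contacts over expected of 2.37 and 2.02. Hlx, a homeobox factor of haematopoietic cells, was joined at 195 kb to a bin with the lncRNA 1700112H15Rik by 17 contacts in p42 UT and 26 under LPS, and its ratio to the p30 LPS ceiling in contacts over expected was 3.04. By contact number the first places went to loops at 10 kb, such as the loop within Glipr1 with 154 contacts in p42 UT and 91 under LPS, only 2.36 and 1.96 times expected, and the loop from Arl11 with 134 and 86.

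The sequences of the distal peak bins, that is, peak bins without a protein-coding start, were searched on both strands for fixed letters. The C/EBP palindrome TTGCGCAA was rare, in 0.540% (0.428 to 0.681%) of 13148 distal peak bins of the members and in 0.515% of all 56127 distal peak bins. The composite letters TGATGCAA were found in 12.6% (12.04 to 13.2%) of the members' bins, 11.7% of all and 10.5% (9.62 to 11.4%) of the bins of loops in both p30 lists only. It was found in 13.8% (12.6 to 15.1%) of the bins of members without a p30 neighbour and in 16.4% (13.2 to 20.1%) of the 446 members' bins with at least 1.5 times higher coverage in p42 under both treatments. The AP-1 site TGANTCA was in 78.5% of the members' bins and 78.2% of all, the CRE TGACGTCA in 3.57% and 3.50%, and the PU.1 site GAGGAAGT in 30.8% and 30.01%. The median GC content was 45.0% for the members' bins and for all bins, 47.0% for the loops in both p30 lists only and 44.1% for the bins with higher coverage, and its part in the shares was not tested. Of the loops whose windows are printed near the start, that of Cebpe at 85 kb had the highest contacts over expected of the 9 in p42 UT. The loops of Rbpj, the DNA-binding effector of Notch signalling, and of Cd47, the surface signal that restrains phagocytosis, had 18 contacts in p42 UT and 11 under LPS and 37 and 36 contacts.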

How the data were processed

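H3K27ac HiChIP was measured in 8 HPC-7 libraries, 2 for each of 4 groups. Per the study's methods, reads were mapped to mm39 with BWA-MEM (BWA 0.7.17 in the submitters' processing notes), ligation events were recorded and deduplicated with pairtools, and loops were called with FitHiChIP. The deposited lists are in 5 kb bins. The authors deposited 1 list per group with 26 columns; how replicates were pooled is not given in the sources used here. The deposited contact count and the coverage count of each bin are not normalized. The deposited coverage bias is a ratio to the mean of peak or other bins. The deposited expected count comes from the caller's model of distance and bias, the deposited probability is a fraction (expected count over modelled contacts), and the deposited p-value and q-value are binomial, with q under 0.01. Because the caller divides by coverage and lists significant pairs alone, a pair missing from a list has no contact number.

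Loops were matched by identical bins with Python 3.11.15, pandas 2.3.3, NumPy 2.4.6, SciPy 1.17.1 and networkx 3.6.1. Promoter bins hold the start of the canonical transcript of a protein-coding gene (GENCODE M39, 21748 start sites, GRCm39, the assembly behind mm39). Expected counts in p30 were refitted per list and distance from log bias, which gave the deposited values to within rounding, and recomputed binomial p-values deviated by no more than 0.987%. The steps were tested on simulated lists. The members and the 15 gene lists were chosen with earlier results of these data known. Named are the 20 start-site bins with most member loops, up to 4 genes per list, the 10 members without a p30 neighbour with the highest contacts over expected and the 10 with most contacts, the 10 largest groups, Fos and Cxcl10. Some genes of the largest groups and Ccl3 are named as landmarks. Alternatives were a q-value of at most 0.001, lists of equal size, autosomes, a minimum distance of 20 kb, a minimum of 10 contacts, 2 bins of slack, merged bin pairs, a wider promoter, and other coverage scales and ratios. Some named items are not reported here.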

Additional observations from a re-analysis of the deposited data

How the results depend on the processing

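No paired analysis was possible because each list pools both replicates of its group, and for the same reason no replicate could be left out. Of 47 alternative values 23 stayed within 1.5 times (numbers of loops and genes) or within the 95% interval of the main value (shares and medians), and the others were as follows. With q-values of at most 0.001 in all lists, 24.3% of the loops had no p30 loop within 1 bin, 30.3% had a promoter bin, the median contacts over expected was 4.54 in p42 UT and 4.53 under LPS, and 4.94% of the peak bins had at least 1.5 times the relative coverage. In lists of equal size 6770 loops met the same rule, with 19.3% without a p30 neighbour, 30.7% with a promoter bin, a median of 4.77 in p42 UT, 1920 genes and 5.30% of peak bins. From 20 kb up, the median distance was 55 kb, the promoter share 31.1% and the medians 4.67 and 4.65. With at least 10 contacts, 19.7% had no p30 neighbour and the medians were 3.94 and 3.98. With 2 bins of slack the share without a p30 neighbour was 11.4%. With the bins beside the start site counted as promoter, the promoter share was 55.6% and 4920 genes had a loop. Coverage per modelled contact gave 1.44% of peak bins (0.709% of all peak bins), a lower ratio gave 12.2% and a ratio of 2 gave 0.750%. On the scale of modelled contacts the median log2 ratio of all peak bins was 0.19 in UT and -0.35 in LPS, so a p42 excess in LPS is relative to that shift. Contact numbers of 10 to 20 limit the precision of single loops.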
